A study of Homo sapiens with 9 samples.

Results

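The genes described here encode the machinery that writes and erases methyl groups on histone lysines, together with the Polycomb complexes. They were taken from a list of 49 symbols, and 46 of these were matched to rows of the count table through their Ensembl identifiers. KMT2B, PCGF2 and UHRF1 were not matched and were not analysed here. All 46 matched genes had enough counts to be tested, among 14582 tested genes of 51796 in the table. Histone lysine methylation works as a set of opposed reactions. KMT2 and SETD1 enzymes, built on a shared core of WDR5, ASH2L, RBBP5 and DPY30, methylate H3K4 at active genes. Polycomb repressive complex 2 (PRC2) methylates H3K27 and Polycomb repressive complex 1 (PRC1) ubiquitinates H2A at silent developmental genes. Lysine demethylases of the KDM families remove the methyl marks. In cancer lines such as lung adenocarcinoma cells, EZH2, KDM1A and the KDM5 enzymes are studied as drug targets.

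RNA was sequenced from A549 cells, an established human lung adenocarcinoma line, that stably carried a short hairpin RNA kept under puromycin selection. The control group carried a hairpin against GFP, the second group a hairpin against PRMT5, and the third a hairpin against MEP50. PRMT5 is an arginine methyltransferase that makes symmetric dimethylarginine on histone tails and on many other proteins, and MEP50, encoded by WDR77, is its partner subunit. Each group had 3 libraries, labelled as biological replicates, and all 9 came from puromycin-selected cells of 1 line. The labels name 1 hairpin group per target, so loss of the target and other effects of its hairpin cannot be told apart.

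Reads on genes numbered from 20806181 to 31586128 per library, and levels are given as CPM, that is counts scaled to library size, with TMM factors. Reads outside annotated genes made up 11.9% to 12.4% of counted reads in the control, 13.7% to 14.5% in the PRMT5 knockdown and 12.3% to 13.8% in the MEP50 knockdown. PRMT5 itself stood at 212, 209 and 205 CPM in the control, 70.1, 67.5 and 69.2 in its own knockdown and 211, 199.7 and 200.4 in the MEP50 knockdown. WDR77 stood at 39.2, 39.6 and 39.3 CPM in the control, 13.6, 10.7 and 13.3 in the MEP50 knockdown and 43.2, 46.9 and 42.1 in the PRMT5 knockdown. Each target was thus lowest in its own knockdown, with no overlap with the other groups. Of the epithelial markers, KRT8 and KRT18 were abundant in every library but fell in both knockdowns (their 5-gene list summed to 6342 to 6573 CPM in the control, 4150 to 4311 in the PRMT5 knockdown and 3866 to 4142 in the MEP50 knockdown). CDH1 (E-cadherin) went the other way in the MEP50 knockdown. It stood at 41.7, 40.0 and 38.5 CPM with the GFP hairpin, 37.1, 32.3 and 35.3 with the PRMT5 hairpin and 66.4, 77.3 and 83.1 with the MEP50 hairpin, slightly lower in the PRMT5 knockdown (log2 fold change -0.20 ± 0.0671, edgeR adjusted p = 0.0131) and higher in the MEP50 knockdown (0.92 ± 0.0641, edgeR adjusted p = 8.73e-14). The first of these calls was lost without GFP control replicate 1 or without PRMT5 knockdown replicate 2 (log2 fold change -0.18 to -0.15, adjusted p = 0.0610 to 0.0873). The part of these epithelial changes in the results was not tested. KRT19 and EPCAM were at or near 0 in all libraries. CDKN2A, which is known to be deleted in A549, had no reads. Markers of fibroblasts, blood cells and endothelium summed to at most 0.284 CPM for any of the 3 lists in any library. In RNA from whole cultures, fewer cells of a type and less RNA per cell cannot be told apart.

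The 46 genes split evenly between rises and falls after either knockdown. Against the control, 14 rose and 14 fell in the PRMT5 knockdown (edgeR quasi-likelihood test, Benjamini-Hochberg adjusted p below 0.05 over all tested genes), which is 60.9% of them. Over all tested genes 51.0% passed the same threshold, 26.1% as higher and 24.9% as lower. In the MEP50 knockdown 15 rose and 16 fell, 67.4% of the 46, beside 51.7% of all tested genes (26.5% higher and 25.2% lower). The median log2 fold change of the 46 was 0.00 in the PRMT5 and -0.02 in the MEP50 knockdown, beside 0.00 in both over all tested genes. Their changes were mostly small. The median absolute log2 fold change was 0.15 and 0.22, beside 0.21 and 0.23 over all tested genes. Both comparisons use the same 3 control libraries, so their values are given side by side and their likeness is not scored.

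The counts are next given by role. Of 5 H3K4 methyltransferases, 4 rose and 1 fell in the PRMT5 knockdown, and 1 rose and 1 fell in the MEP50 knockdown. Of 6 subunits of their complexes, 2 fell in the PRMT5 knockdown, and 1 rose and 2 fell in the MEP50 knockdown. Of 9 PRC2 genes, 2 rose and 4 fell in the PRMT5 knockdown, and 3 rose and 4 fell in the MEP50 knockdown. Of 5 PRC1 genes, 1 rose and 2 fell in the PRMT5 knockdown, and 2 rose and 2 fell in the MEP50 knockdown. Of 10 demethylases, 4 rose and 4 fell in each. The demethylases held both extremes of the 46 genes, with KDM5B at the bottom and KDM2B at the top in both knockdowns. Over all tested genes 51.0% passed in the PRMT5 and 51.7% in the MEP50 knockdown. These counts describe the groups, and no difference between the groups was tested.

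**Figure D1:**
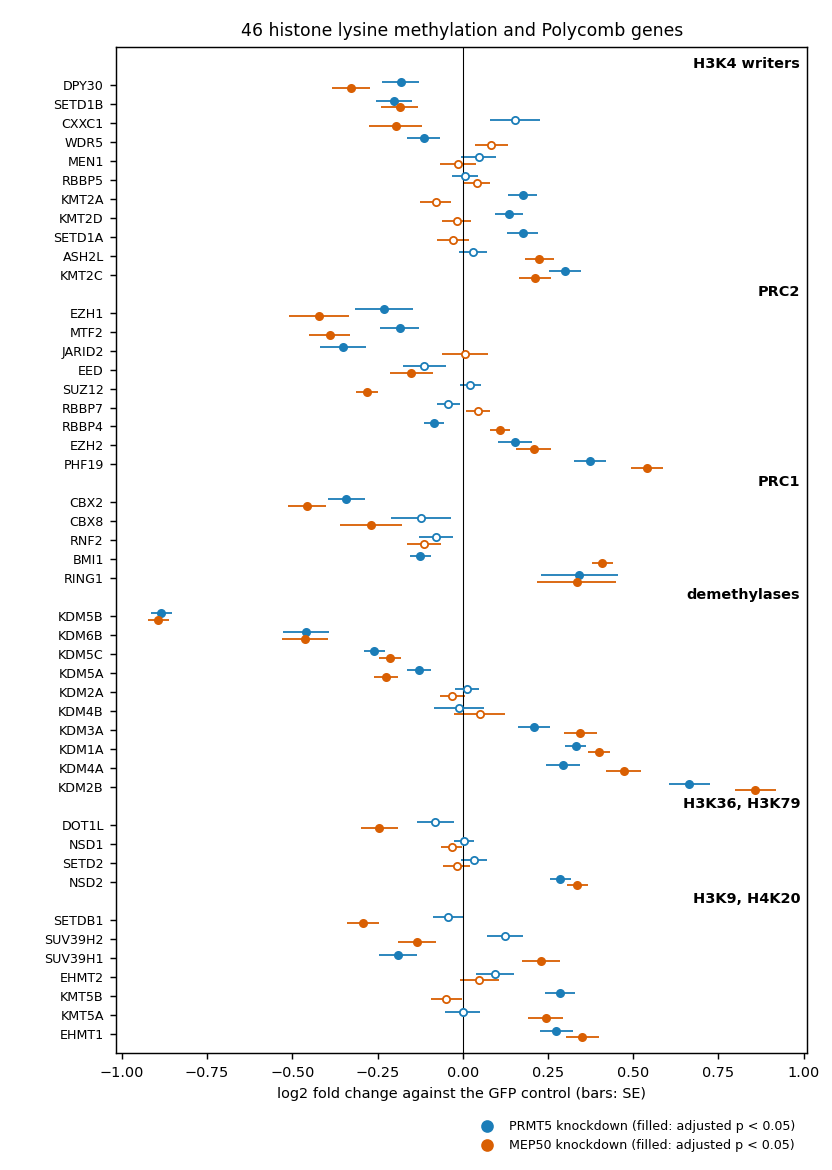
Log2 fold change against the GFP control (horizontal axis) of the 46 genes, grouped by role, in the PRMT5 knockdown (blue) and the MEP50 knockdown (orange); bars are standard errors and filled points passed an adjusted p of 0.05. KDM5B lies farthest left at -0.88 and -0.89, and KDM2B farthest right at 0.66 and 0.86.

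KDM5B (ENSG00000117139), which removes di- and trimethyl marks from H3K4, fell most. It stood at 377, 386 and 387 CPM with the GFP hairpin, 212, 201 and 210.4 with the PRMT5 hairpin and 213, 201 and 205 with the MEP50 hairpin. All 6 knockdown libraries lay far below the control libraries, and both knockdowns overlapped each other. The level fell by 45.8% in the PRMT5 knockdown (log2 fold change -0.88 ± 0.0301 SE, n = 3 per group, edgeR adjusted p = 6.41e-26) and fell by 46.2% in the MEP50 knockdown (-0.89 ± 0.0304, edgeR adjusted p = 8.27e-26). The difference between the knockdowns was 0.01 ± 0.0308 on the log2 scale, with a 95% interval of -0.05 to 0.07. The paralogs KDM5C and KDM5A, which act on the same mark, moved less. KDM5C went from 189 ± 0.499 CPM (SD, n = 3) in the control to 158 ± 3.95 in the PRMT5 and 163 ± 2.91 in the MEP50 knockdown. Its log2 fold changes were -0.26 ± 0.0317 (edgeR adjusted p = 5.53e-09) and -0.21 ± 0.0321 (edgeR adjusted p = 4.13e-07). KDM5A went from 161 ± 5.73 CPM to 147 ± 3.62 and 138 ± 4.195, with log2 fold changes of -0.13 ± 0.0348 (edgeR adjusted p = 0.00192) and -0.23 ± 0.0354 (edgeR adjusted p = 9.35e-07). All 3 KDM5 genes measured were therefore lower in both knockdowns, with no knockdown library inside the control range.

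The promoters of these H3K4 demethylase genes, and of 2 demethylase genes that rose, are shown because the genes moved in opposite directions under the same hairpins. The sequences are the 250 bases upstream of the RefSeq transcript start (GRCh38.p14), 5′ to 3′ on the gene's strand. Capitals mark matches on either strand to the GC box GGGCGG (bound by SP factors), the box CCAAT (bound by NF-Y), the ETS core CCGGAAG, and the E2F motifs TTTCGCGC and TTTGGCGC.
KDM5B (chr1:202808422-202808671, minus strand): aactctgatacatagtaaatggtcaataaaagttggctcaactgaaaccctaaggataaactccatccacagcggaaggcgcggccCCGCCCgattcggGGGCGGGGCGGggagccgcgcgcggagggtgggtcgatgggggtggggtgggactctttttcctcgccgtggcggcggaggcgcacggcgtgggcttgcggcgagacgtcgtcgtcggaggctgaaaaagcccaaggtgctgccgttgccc
KDM5A (chr12:389321-389570, minus strand): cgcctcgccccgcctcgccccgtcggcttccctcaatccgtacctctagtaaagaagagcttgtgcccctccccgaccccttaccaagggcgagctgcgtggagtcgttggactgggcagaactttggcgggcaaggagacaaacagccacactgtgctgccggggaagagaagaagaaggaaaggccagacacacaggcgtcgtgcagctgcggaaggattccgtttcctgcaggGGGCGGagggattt
KDM5C (chrX:53225208-53225457, minus strand): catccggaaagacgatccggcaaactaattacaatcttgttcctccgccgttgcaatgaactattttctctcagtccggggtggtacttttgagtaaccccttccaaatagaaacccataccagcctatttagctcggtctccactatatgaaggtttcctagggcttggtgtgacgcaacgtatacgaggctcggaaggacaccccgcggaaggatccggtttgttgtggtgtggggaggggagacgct
KDM1A (chr1:23019218-23019467, plus strand): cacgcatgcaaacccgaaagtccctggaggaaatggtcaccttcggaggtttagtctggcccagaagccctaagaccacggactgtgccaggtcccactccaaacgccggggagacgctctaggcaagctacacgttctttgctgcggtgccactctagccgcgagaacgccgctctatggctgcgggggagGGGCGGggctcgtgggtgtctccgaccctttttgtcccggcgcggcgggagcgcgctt
KDM4A (chr1:43649899-43650148, plus strand): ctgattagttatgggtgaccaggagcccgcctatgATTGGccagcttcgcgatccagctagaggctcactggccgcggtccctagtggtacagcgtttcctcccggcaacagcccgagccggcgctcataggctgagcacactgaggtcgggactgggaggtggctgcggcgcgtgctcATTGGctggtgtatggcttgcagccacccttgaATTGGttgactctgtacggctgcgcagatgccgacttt
KDM5B holds 3 GC boxes, of which the last 2 overlap by 1 base, KDM5A and KDM1A hold 1 each, KDM5C holds none of the motifs, and KDM4A holds 3 CCAAT boxes and no GC box. The other demethylase genes are not shown. Of those that rose, KDM2B has windows with 6, 1, 2 and 0 GC boxes and KDM3A with 2 and 2. KDM6B, which fell, has windows with 4 and 0. KDM2A and KDM4B, which did not pass, have 0 and 1, and 4. A link between motifs and direction was not tested. Over all 35116 windows of this length, 42.6% hold the GC box, 32.01% CCAAT, 8.52% the ETS core and 0.968% an E2F motif. Of 65 windows used for 40 of the listed genes, 51 hold the GC box, 25 CCAAT, 4 the ETS core and 0 an E2F motif. Windows on the chromosome that carries ASH2L were left out for the listed genes and kept in the share over all windows. A match describes the letters only, and factor binding was not measured.

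KDM2B (ENSG00000089094), an H3K36 demethylase whose CXXC domain recruits a variant PRC1 to CpG islands, rose most. It stood at 24.5, 23.8 and 24.2 CPM with the GFP hairpin, 38.3, 37.3 and 39.3 with the PRMT5 hairpin and 42.4, 43.3 and 45.4 with the MEP50 hairpin. The groups formed 3 separate steps, with the control lowest and the MEP50 knockdown highest. The log2 fold change was 0.66 ± 0.0598 in the PRMT5 knockdown (edgeR adjusted p = 2.09e-12) and 0.86 ± 0.0603 in the MEP50 knockdown (edgeR adjusted p = 1.45e-15), a rise of 58.5% and 81.2%. Its paralog KDM2A did not pass the test in either (log2 fold change 0.01 with 95% interval -0.06 to 0.08, and -0.03 with -0.10 to 0.04).

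KDM1A (LSD1), which removes mono- and dimethyl marks from H3K4 within the CoREST complex, also rose. It stood at 163, 162 and 160.0 CPM with the GFP hairpin, 207, 208 and 196 with the PRMT5 hairpin and 211, 217 and 212 with the MEP50 hairpin. No knockdown library reached down to the control range, and the log2 fold changes were 0.33 ± 0.0316 (edgeR adjusted p = 9.86e-12) and 0.40 ± 0.0318 (edgeR adjusted p = 6.09e-14). KDM4A, a demethylase of H3K9 and H3K36, stood at 48.1, 53.0 and 48.3 CPM with the GFP hairpin, 64.6, 58.1 and 60.8 with the PRMT5 hairpin and 68.2, 69.4 and 69.7 with the MEP50 hairpin. Its log2 fold changes were 0.29 ± 0.0501 (edgeR adjusted p = 4.56e-06) and 0.47 ± 0.0505 (edgeR adjusted p = 1.93e-10), again with no overlap with the control. KDM3A, an H3K9 demethylase, rose by 0.21 ± 0.0478 and 0.35 ± 0.0483 on the log2 scale, while KDM4B did not pass the test (-0.01 ± 0.0733 and 0.05 ± 0.0746). KDM6B (JMJD3), which removes the Polycomb mark from H3K27, fell. It stood at 34.3, 30.4 and 31.5 CPM with the GFP hairpin, 22.8, 23.1 and 24.0 with the PRMT5 hairpin and 23.1, 23.2 and 23.5 with the MEP50 hairpin. All knockdown libraries lay below the control libraries. The log2 fold changes were -0.46 ± 0.0667 (edgeR adjusted p = 2.21e-07) and -0.46 ± 0.0684 (edgeR adjusted p = 2.83e-07), and the knockdowns differed by 0.00 with a 95% interval of -0.13 to 0.14.

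**Figure D2:**
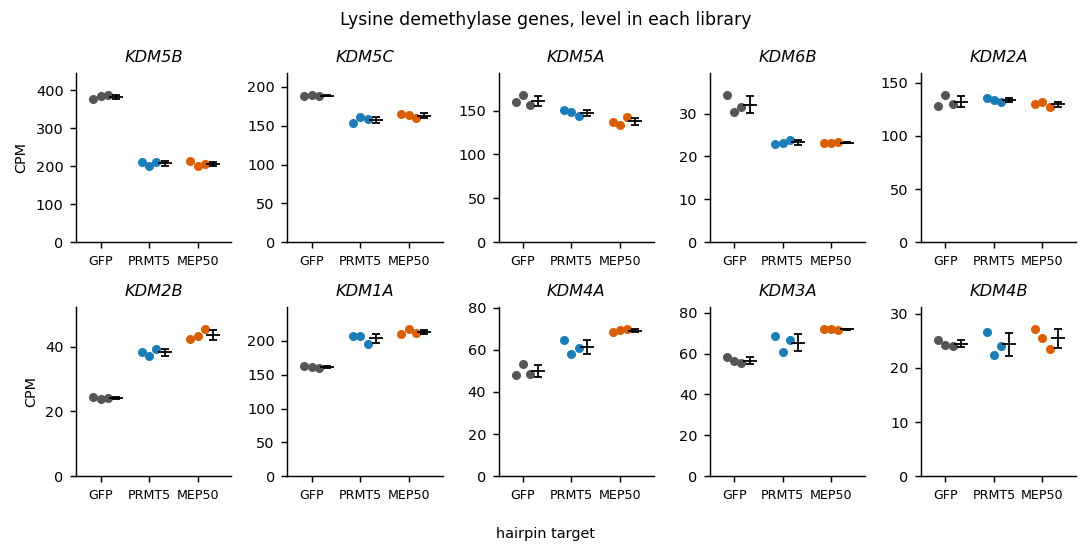
TMM-scaled CPM (vertical axis, from 0) of the 10 demethylase genes in each library, by hairpin target; points are libraries, and the black marks are the mean and SD of 3 libraries. KDM5B, KDM5C, KDM5A and KDM6B lie lower in both knockdowns, KDM2B, KDM1A, KDM4A and KDM3A lie higher, and KDM2A and KDM4B overlap the control.

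A wider list of demethylases and partners of LSD1, 17 genes with 16 tested, leaned lower after PRMT5 knockdown, with 2 higher and 8 lower (median log2 fold change -0.17). After MEP50 knockdown 3 were higher and 5 lower (median -0.06). In the PRMT5 knockdown 10 of the 16 were thus called (62.5%), beside 51.0% of all tested genes. In the MEP50 knockdown 8 of the 16 were called, beside 51.7%, a share no higher than over all genes. RCOR1, the CoREST scaffold that holds LSD1 on chromatin, fell from 104 ± 3.28 CPM to 86.0 ± 4.25 (log2 fold change -0.27 ± 0.0445, edgeR adjusted p = 1.97e-06) and 79.7 ± 5.52 (-0.38 ± 0.0456, edgeR adjusted p = 3.57e-09), while KDM1A itself rose. PHF8, an H3K9 and H4K20 demethylase, fell too (log2 fold change -0.20 ± 0.0464 and -0.38 ± 0.0479). HMG20B, another LSD1 partner, and KDM7A passed the test in the PRMT5 knockdown (-0.22 ± 0.0611 and -0.31 ± 0.0942) and not in the MEP50 knockdown (-0.06 ± 0.0618 and -0.19 ± 0.0958). In the direct test between the knockdowns HMG20B passed narrowly (-0.15, edgeR adjusted p = 0.0498) and KDM7A did not pass. KDM4D fell in the MEP50 knockdown (-1.55 ± 0.452), from a control level of only 0.803 ± 0.0391 CPM. It was also lower in the PRMT5 knockdown without passing (-0.54), and the direct test between the knockdowns did not call it (1.02). RIOX1 was listed with 0 reads. An exon of RIOX1 overlaps HEATR4 on the opposite strand, so its reads may have been lost in the counting, which was not tested.

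Among the H3K4 methyltransferases, KMT2C rose in both knockdowns and SETD1B fell in both. KMT2C, an enhancer H3K4 monomethylase, stood at 58.1, 58.4 and 57.1 CPM with the GFP hairpin, 67.3, 72.8 and 73.5 with the PRMT5 hairpin and 66.0, 65.4 and 69.6 with the MEP50 hairpin. The knockdown libraries all lay above the control (log2 fold change 0.30 ± 0.0463, edgeR adjusted p = 7.09e-07, and 0.21 ± 0.0473, edgeR adjusted p = 2.24e-04). KMT2C has near-identical copies elsewhere in the genome, so its reads may be shared with them. SETD1B, a catalytic subunit of a COMPASS complex, stood at 59.3, 60.5 and 55.6 CPM with the GFP hairpin, 47.2, 51.6 and 53.4 with the PRMT5 hairpin and 53.4, 52.5 and 48.7 with the MEP50 hairpin. Its log2 fold changes were -0.20 ± 0.0529 (edgeR adjusted p = 0.00145) and -0.19 ± 0.0540 (edgeR adjusted p = 0.00377), with no overlap with the control.

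KMT2A (MLL1), SETD1A and KMT2D passed the test only in the PRMT5 knockdown, and each also differed between the knockdowns. KMT2A, which keeps HOX genes active in development, stood at 79.1, 83.9 and 80.1 CPM with the GFP hairpin, 86.0, 92.7 and 95.6 with the PRMT5 hairpin and 79.7, 75.4 and 75.2 with the MEP50 hairpin. The PRMT5 knockdown libraries were the highest, while those of the MEP50 knockdown overlapped the control. The log2 fold change was 0.18 ± 0.0432 in the PRMT5 knockdown (edgeR adjusted p = 7.69e-04) and -0.08 ± 0.0446 in the MEP50 knockdown (edgeR adjusted p = 0.135). The difference between the knockdowns was 0.26 ± 0.0441 (edgeR adjusted p = 8.90e-06). SETD1A, the paralog of SETD1B, rose by 0.18 ± 0.0457 and the enhancer enzyme KMT2D by 0.14 ± 0.0417 in the PRMT5 knockdown. Their differences between the knockdowns were 0.20 ± 0.0465 and 0.15 ± 0.0423. The KMT2D rise against the control was lost without GFP control replicate 1 or without PRMT5 knockdown replicates 2 or 3 (log2 fold change 0.10 to 0.11, adjusted p = 0.0545 to 0.0617).

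Of the subunits, DPY30 and ASH2L of the shared core moved in opposite directions in the MEP50 knockdown. DPY30 stood at 56.9, 49.5 and 56.9 CPM with the GFP hairpin, 47.9, 47.4 and 48.6 with the PRMT5 hairpin and 42.3, 42.5 and 45.0 with the MEP50 hairpin. It was below the control in both (log2 fold change -0.18 ± 0.0542, edgeR adjusted p = 0.00487, and -0.33 ± 0.0559, edgeR adjusted p = 3.95e-06). ASH2L stood at 72.2, 73.2 and 76.4 CPM with the GFP hairpin, 77.6, 73.5 and 75.6 with the PRMT5 hairpin and 84.8, 86.5 and 87.8 with the MEP50 hairpin. It rose past the threshold in the MEP50 knockdown (0.22 ± 0.0423, edgeR adjusted p = 2.10e-05, against 0.03 ± 0.0420 in the PRMT5 knockdown), and the knockdowns differed by -0.19 ± 0.0421 (edgeR adjusted p = 2.43e-04). WDR5, the core subunit that also reads symmetric dimethylarginine on H3R2, the mark PRMT5 can place, fell slightly in the PRMT5 knockdown (-0.11 ± 0.0481, edgeR adjusted p = 0.0441). That call was lost with library totals as the only scaling, without GFP control replicates 2 or 3 or without PRMT5 knockdown replicates 1 or 3 (log2 fold change -0.12 to -0.10, adjusted p = 0.0618 to 0.126). RBBP5 and menin (MEN1) passed no test, with log2 fold changes from -0.01 to 0.05 against the control.

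CXXC1 (CFP1), the SETD1 subunit that binds CpG islands and reads H3K4me3, lay on opposite sides of the control in the 2 knockdowns. It stood at 21.3, 20.8 and 22.5 CPM with the GFP hairpin, 24.5, 23.3 and 24.0 with the PRMT5 hairpin and 20.2, 19.0 and 17.3 with the MEP50 hairpin. The 3 groups did not overlap, with the PRMT5 knockdown on top and the MEP50 knockdown at the bottom. Its difference between the knockdowns was the most positive of the 46 genes at 0.35 ± 0.0763 (edgeR adjusted p = 2.71e-04). Against the control it was 0.15 ± 0.0738 in the PRMT5 knockdown (edgeR adjusted p = 0.0828) and -0.20 ± 0.0775 in the MEP50 knockdown (edgeR adjusted p = 0.0313), and the latter call was lost without GFP control replicates 1 or 3 or without MEP50 knockdown replicates 2 or 3 (log2 fold change -0.20 to -0.14, adjusted p = 0.0539 to 0.181).

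In the wider list of H3K4 complex subunits and H3K4 methyl readers, 10 of 19 genes were higher and 2 lower in the PRMT5 knockdown (median log2 fold change 0.11). In the MEP50 knockdown 7 were higher and 3 lower (median 0.02). The share called was 63.2% and 52.6% of the 19, beside 51.0% and 51.7% of all tested genes. The PRMT5 count came to 7 of 19 without GFP control replicate 2. PSIP1 (LEDGF), which tethers menin and KMT2A to chromatin, rose alike in both, from 213 ± 1.26 CPM to 273 ± 6.01 and 273 ± 8.41 (log2 fold change 0.36 ± 0.0300, edgeR adjusted p = 2.86e-13, and 0.36 ± 0.0303, edgeR adjusted p = 3.60e-13). SGF29, the H3K4me3 reader of the SAGA complex, rose by 0.33 ± 0.0770 and 0.53 ± 0.0777 on the log2 scale. PHF13, an H3K4me3 reader, stood at 30.6, 25.2 and 25.3 CPM with the GFP hairpin, 31.4, 32.3 and 30.2 with the PRMT5 hairpin and 22.3, 20.9 and 21.8 with the MEP50 hairpin. It fell in the MEP50 knockdown (-0.32 ± 0.0750, edgeR adjusted p = 4.74e-04) and passed as higher in the PRMT5 knockdown (0.22 ± 0.0707), a call lost without GFP control replicates 2 or 3 or without PRMT5 knockdown replicate 2 (log2 fold change 0.16 to 0.19, adjusted p = 0.0550 to 0.0901). The difference of PHF13 between the knockdowns was 0.53 ± 0.0736 (edgeR adjusted p = 1.53e-07). ING4, another reader, fell in the PRMT5 knockdown (-0.35 ± 0.131, with a mean of 7.12 ± 0.0789 CPM in the control and 5.56 ± 0.892 there), and this was lost without GFP control replicates 2 or 3 or without PRMT5 knockdown replicate 1 (log2 fold change -0.36 to -0.25, adjusted p = 0.0514 to 0.136). In the MEP50 knockdown ING4 did not pass (-0.09 ± 0.132). Its difference between the knockdowns did not pass either (-0.26 ± 0.135, edgeR adjusted p = 0.132).

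The H3K27 methyltransferases EZH2 and EZH1 moved in opposite directions. EZH2, the catalytic subunit that dominates in dividing cells, stood at 53.9, 49.7 and 48.5 CPM with the GFP hairpin, 56.0, 57.6 and 55.3 with the PRMT5 hairpin and 60.3, 58.7 and 56.7 with the MEP50 hairpin. All knockdown libraries lay above the control, by log2 fold changes of 0.15 ± 0.0501 (edgeR adjusted p = 0.00957) and 0.21 ± 0.0509 (edgeR adjusted p = 6.68e-04). EZH1, its paralog of resting cells, stood at 23.9, 19.2 and 19.5 CPM with the GFP hairpin, 18.5, 17.7 and 17.1 with the PRMT5 hairpin and 16.5, 15.9 and 14.4 with the MEP50 hairpin. All knockdown libraries lay below the control, by -0.23 ± 0.0850 (edgeR adjusted p = 0.0209) and -0.42 ± 0.0884 (edgeR adjusted p = 1.01e-04). Per kilobase of exon, EZH2 was the more abundant, at 11.2 CPM per kb against 2.99 for EZH1 in the control. In the PRMT5 knockdown the EZH2 call was lost without GFP control replicates 2 or 3 or without PRMT5 knockdown replicate 2 (log2 fold change 0.12 to 0.14, adjusted p = 0.0510 to 0.0907) and the EZH1 call without GFP control replicate 1 or without PRMT5 knockdown replicate 3 (log2 fold change -0.21 to -0.13, adjusted p = 0.0704 to 0.237). EZH2 follows the cell cycle in many cells. Of 16 proliferation markers, 9 were higher and 4 lower in the PRMT5 knockdown and 11 and 3 in the MEP50 knockdown. The share called was 81.25% and 87.5%, beside 51.0% and 51.7% of all tested genes. Their summed level was 3893 to 3924 CPM in the control, 4088 to 4166 in the PRMT5 and 4144 to 4257 in the MEP50 knockdown. None of these markers was at 0, and their part in the EZH2 result was not tested. CDC20 and AURKB led the rises (0.72 and 0.68; 0.60 and 0.61) and PCNA the falls (-0.50 and -0.33).

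SUZ12 (ENSG00000178691), the scaffold of PRC2, fell in the MEP50 knockdown and not detectably in the PRMT5 knockdown. It stood at 196, 189.7 and 197 CPM with the GFP hairpin, 201, 196 and 195 with the PRMT5 hairpin and 159, 156 and 165 with the MEP50 hairpin. The MEP50 knockdown libraries lay below all others, while the PRMT5 knockdown overlapped the control. The log2 fold change was -0.28 ± 0.0322 in the MEP50 knockdown (edgeR adjusted p = 1.19e-09) and 0.02 ± 0.0315 in the PRMT5 knockdown (95% interval -0.04 to 0.08), and the knockdowns differed by 0.30 ± 0.0321 (edgeR adjusted p = 4.03e-10). SUZ12 has a near-identical pseudogene copy, so its reads may be shared with it. EED, the subunit that reads the H3K27me3 mark, stood at 43.7, 40.0 and 39.7 CPM with the GFP hairpin, 36.3, 41.3 and 36.5 with the PRMT5 hairpin and 35.7, 35.4 and 39.7 with the MEP50 hairpin. Its log2 fold change was -0.11 ± 0.0617 in the PRMT5 knockdown (edgeR adjusted p = 0.129) and -0.15 ± 0.0632 in the MEP50 knockdown (edgeR adjusted p = 0.0424). The direct test between the knockdowns did not call EED (difference 0.04 ± 0.0632, edgeR adjusted p = 0.663). The MEP50 call was lost with DESeq2, without GFP control replicate 1 or without MEP50 knockdown replicates 1 or 2 (log2 fold change -0.16 to -0.10, adjusted p = 0.0512 to 0.231), and EED passed in the PRMT5 knockdown without PRMT5 knockdown replicate 2 (log2 fold change -0.18, edgeR adjusted p = 0.0275). The histone chaperone RBBP4, shared by PRC2 and other complexes, stood at 249.7, 248 and 246 CPM with the GFP hairpin, 238, 229 and 234 with the PRMT5 hairpin and 268, 265 and 269 with the MEP50 hairpin, so the 3 groups did not overlap. It fell in the PRMT5 knockdown (log2 fold change -0.09 ± 0.0289) and rose in the MEP50 knockdown (0.11 ± 0.0290), the first call being lost without PRMT5 knockdown replicate 2 (log2 fold change -0.07, edgeR adjusted p = 0.0686). Its paralog RBBP7 passed neither (-0.04 ± 0.0347 and 0.04 ± 0.0351).

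The accessory subunits that steer PRC2 to its sites each behaved differently. PHF19, a Tudor-domain subunit that binds H3K36 methylation, stood at 54.4, 50.3 and 52.8 CPM with the GFP hairpin, 65.7, 69.1 and 68.8 with the PRMT5 hairpin and 75.5, 78.3 and 75.2 with the MEP50 hairpin. It was the PRC2 gene that rose most, by 0.37 ± 0.0461 (edgeR adjusted p = 6.94e-09) and 0.54 ± 0.0465 (edgeR adjusted p = 5.51e-13), with 3 separate steps as for KDM2B. Its paralog MTF2, which binds CpG islands, stood at 49.9, 49.1 and 54.9 CPM with the GFP hairpin, 46.6, 45.7 and 43.0 with the PRMT5 hairpin and 37.3, 37.1 and 42.6 with the MEP50 hairpin. It fell in both (log2 fold change -0.19 ± 0.0575, edgeR adjusted p = 0.00664, and -0.39 ± 0.0595, edgeR adjusted p = 5.14e-07), and the first call was lost without GFP control replicate 3 (log2 fold change -0.14, edgeR adjusted p = 0.0695). JARID2, a subunit that stimulates PRC2 on nucleosomes, stood at 30.0, 31.4 and 28.9 CPM with the GFP hairpin, 22.2, 25.2 and 23.2 with the PRMT5 hairpin and 30.0, 29.8 and 30.8 with the MEP50 hairpin. Only its PRMT5 knockdown libraries stood apart, below all others (log2 fold change -0.35 ± 0.0668, edgeR adjusted p = 2.56e-05, against 0.01 ± 0.0666 in the MEP50 knockdown). The difference of JARID2 between the knockdowns was -0.36 ± 0.0678 (edgeR adjusted p = 3.77e-05).

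BMI1 (ENSG00000168283), the PCGF4 subunit of canonical PRC1, showed the largest difference between the knockdowns of the 46 genes. It stood at 199, 199 and 203 CPM with the GFP hairpin, 187, 187 and 177 with the PRMT5 hairpin and 269.6, 264 and 264 with the MEP50 hairpin. The MEP50 knockdown was the highest and the PRMT5 knockdown the lowest, with no overlap among the 3 groups. The log2 fold change was 0.41 ± 0.0305 in the MEP50 knockdown (edgeR adjusted p = 8.62e-15) and -0.13 ± 0.0307 in the PRMT5 knockdown (edgeR adjusted p = 7.39e-04). The knockdowns differed by -0.53 ± 0.0306 (edgeR adjusted p = 9.08e-18). A read-through transcript joins BMI1 with its neighbour COMMD3 on the same strand, so COMMD3 was examined after these values were seen. COMMD3 (ENSG00000148444) stood at 59.2, 56.0 and 58.5 CPM with the GFP hairpin, 41.9, 39.2 and 42.3 with the PRMT5 hairpin and 83.8, 78.6 and 74.8 with the MEP50 hairpin, the same order of groups as BMI1, with log2 fold changes of -0.49 ± 0.0513 and 0.45 ± 0.0495. The part of read-through reads in the BMI1 values was not tested.

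Of the other PRC1 genes, CBX2 and CBX8 are readers of H3K27me3 and RING1 and RNF2 are the H2A ubiquitin ligases. CBX2 stood at 50.8, 51.8 and 49.5 CPM with the GFP hairpin, 37.8, 39.9 and 42.2 with the PRMT5 hairpin and 37.4, 36.6 and 36.8 with the MEP50 hairpin. All knockdown libraries lay below the control (log2 fold change -0.34 ± 0.0540, edgeR adjusted p = 1.13e-06, and -0.46 ± 0.0557, edgeR adjusted p = 4.14e-09). CBX8 passed in the MEP50 knockdown (-0.27 ± 0.0915) and not in the PRMT5 knockdown (-0.12 ± 0.0882), and its libraries overlapped the control in both. The direct test between the knockdowns did not call CBX8 (difference 0.15 ± 0.0917, edgeR adjusted p = 0.213). The CBX8 call was lost without GFP control replicates 1 or 3 or without MEP50 knockdown replicate 3 (log2 fold change -0.24 to -0.19, adjusted p = 0.0519 to 0.124). RING1, a gene with few reads (4.61 CPM per kb of exon in the control), stood at 8.50, 9.24 and 7.43 CPM with the GFP hairpin, 12.1, 9.26 and 10.7 with the PRMT5 hairpin and 11.3, 10.1 and 10.4 with the MEP50 hairpin. It was higher in both (log2 fold change 0.34 ± 0.113, edgeR adjusted p = 0.0107, and 0.33 ± 0.116, edgeR adjusted p = 0.0143), with wide errors. The RING1 call was lost without GFP control replicate 3 or without PRMT5 knockdown replicate 1 (log2 fold change 0.24 to 0.25, adjusted p = 0.0964 to 0.113) in the PRMT5 knockdown and without GFP control replicate 3 or without MEP50 knockdown replicate 1 (log2 fold change 0.25 to 0.29, adjusted p = 0.0556 to 0.1002) in the MEP50 knockdown. RNF2 did not pass (-0.08 ± 0.0495 and -0.11 ± 0.0506, edgeR adjusted p = 0.0569 in the MEP50 knockdown). RNF2 passed in the MEP50 knockdown with RLE scaling, with upper-quartile scaling, with library totals as the only scaling, with no low-count filter, with 1 CPM in 3 libraries, in a fit of the 6 libraries of the comparison, without PRMT5 knockdown replicate 3 or without MEP50 knockdown replicate 3 (log2 fold change -0.16 to -0.11, adjusted p = 0.0243 to 0.0483). With all libraries 4 of the 5 PRC1 genes were called in the MEP50 knockdown (80.0%), beside 51.7% of all tested genes. Without GFP control replicate 3 the PRC1 count there was 2 of 5, in place of 4.

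**Figure D3:**
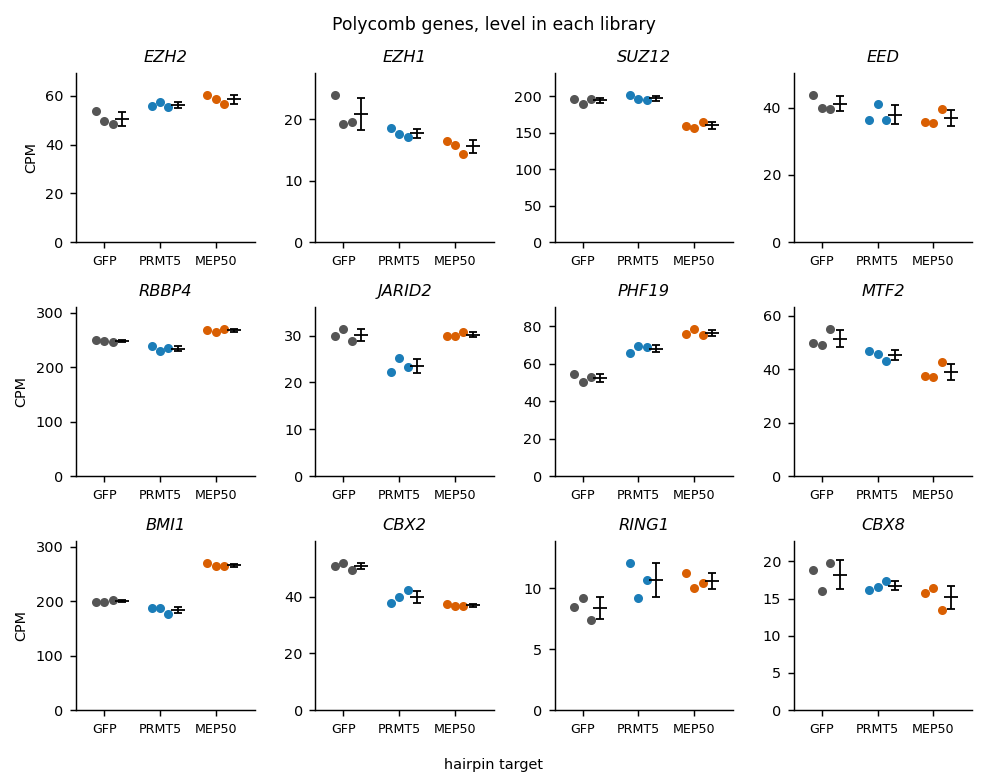
TMM-scaled CPM (vertical axis, from 0) of 12 Polycomb genes in each library, by hairpin target; points are libraries, and the black marks are the mean and SD of 3 libraries. SUZ12 is lower in the MEP50 knockdown alone, JARID2 in the PRMT5 knockdown alone, and BMI1 is highest in the MEP50 knockdown at 264 to 269.6 CPM.

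The wider list of Polycomb genes had 25 tested members of 26 matched. In the PRMT5 knockdown 8 were higher and 4 lower, and in the MEP50 knockdown 9 were higher and 8 lower (median log2 fold change 0.00 and 0.02). The share called was 48.0% and 68.0% of the 25, beside 51.0% and 51.7% of all tested genes. SCML2 and SCMH1, homologs of Sex comb on midleg that associate with PRC1, and the polyhomeotic subunit gene PHC2 led the rises. SCML2 rose from 13.2 ± 0.744 CPM to 22.9 ± 0.398 in the PRMT5 and 20.7 ± 2.26 in the MEP50 knockdown (log2 fold change 0.79 ± 0.0832 and 0.65 ± 0.0857, edgeR adjusted p = 1.21e-10 and 2.53e-08). SCMH1 rose by 0.60 ± 0.0829 and 0.83 ± 0.0834 (edgeR adjusted p = 7.88e-08 and 4.05e-11), and PHC2 by 0.55 ± 0.0493 and 0.45 ± 0.0504 (edgeR adjusted p = 1.84e-12 and 4.88e-10). E2F6, a repressor that brings a variant PRC1 to its sites, stood at 33.8, 30.6 and 31.5 CPM with the GFP hairpin, 27.3, 29.8 and 27.4 with the PRMT5 hairpin and 20.7, 17.7 and 21.1 with the MEP50 hairpin. Its fall was larger in the MEP50 knockdown (-0.69 ± 0.0737, edgeR adjusted p = 2.15e-10) than in the PRMT5 knockdown (-0.18 ± 0.0694), with a difference of 0.50 ± 0.0741 (edgeR adjusted p = 5.04e-07). The E2F6 call in the PRMT5 knockdown was lost without GFP control replicate 1 or without PRMT5 knockdown replicates 1 or 3 (log2 fold change -0.17 to -0.15, adjusted p = 0.0654 to 0.120).

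Of the methyltransferases of H3K36 and H3K79, NSD2 rose in both knockdowns. NSD2, the H3K36 dimethylase that is a known oncogene, stood at 222, 229.8 and 214 CPM with the GFP hairpin, 267, 277 and 269 with the PRMT5 hairpin and 279, 280.3 and 282 with the MEP50 hairpin. Every knockdown library lay above the control (log2 fold change 0.29 ± 0.0302, edgeR adjusted p = 1.50e-10, and 0.34 ± 0.0304, edgeR adjusted p = 2.25e-12). Its paralog NSD1 and the H3K36 trimethylase SETD2 passed no test. SETD2 stood at 122, 123 and 119 CPM with the GFP hairpin, 121, 123 and 129 with the PRMT5 hairpin and 126, 112 and 121 with the MEP50 hairpin, and the groups overlapped, with log2 fold changes of 0.03 (95% interval -0.04 to 0.11) and -0.02 (-0.10 to 0.06). NSD1 gave 0.00 (-0.06 to 0.06) and -0.03 (-0.09 to 0.03). DOT1L, the H3K79 methyltransferase, stood at 66.1, 67.5 and 66.4 CPM with the GFP hairpin, 56.9, 61.8 and 70.0 with the PRMT5 hairpin and 54.9, 59.1 and 54.8 with the MEP50 hairpin. The PRMT5 knockdown libraries spread widely and overlapped the control, while all of the MEP50 knockdown lay below it (log2 fold change -0.24 ± 0.0551, edgeR adjusted p = 2.80e-04, against -0.08 ± 0.0535 in the PRMT5 knockdown). DOT1L passed as lower in the PRMT5 knockdown too without PRMT5 knockdown replicate 3 (log2 fold change -0.17, edgeR adjusted p = 0.00684), which raised the count of this class there from 1 to 2 of 4.

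The H3K9 and H4K20 methyltransferases had 7 measured genes, of which 2 rose and 1 fell in the PRMT5 knockdown. In the MEP50 knockdown 3 rose and 2 fell. The share called was 42.9% and 71.4%, beside 51.0% and 51.7% of all tested genes. EHMT1 (GLP), an H3K9 dimethylase, stood at 50.8, 50.3 and 50.7 CPM with the GFP hairpin, 61.1, 62.3 and 60.2 with the PRMT5 hairpin and 62.8, 69.0 and 62.1 with the MEP50 hairpin. It rose in both (log2 fold change 0.27 ± 0.0486, edgeR adjusted p = 8.68e-06, and 0.35 ± 0.0493, edgeR adjusted p = 9.75e-08), while its partner EHMT2 (G9a) did not pass (0.09 ± 0.0559 and 0.05 ± 0.0572). SETDB1, which silences endogenous retroviruses through H3K9me3, stood at 65.9, 64.5 and 64.1 CPM with the GFP hairpin, 61.2, 63.6 and 64.0 with the PRMT5 hairpin and 51.8, 54.0 and 53.0 with the MEP50 hairpin. It fell in the MEP50 knockdown (-0.29 ± 0.0469, edgeR adjusted p = 1.38e-06) and did not pass in the PRMT5 knockdown (-0.04 ± 0.0453).

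SUV39H1 and SUV39H2, the paralogous H3K9 trimethylases of constitutive heterochromatin, differed between the knockdowns in opposite directions. SUV39H1 stood at 42.2, 45.4 and 39.4 CPM with the GFP hairpin, 36.3, 37.5 and 37.4 with the PRMT5 hairpin and 48.8, 49.98 and 50.1 with the MEP50 hairpin. The 3 groups did not overlap, with the PRMT5 knockdown lowest (log2 fold change -0.19 ± 0.0564, edgeR adjusted p = 0.00453) and the MEP50 knockdown highest (0.23 ± 0.0561, edgeR adjusted p = 6.59e-04). The knockdowns differed by -0.42 ± 0.0564 for SUV39H1 (edgeR adjusted p = 8.06e-08) and by 0.26 ± 0.0546 for SUV39H2 (edgeR adjusted p = 2.00e-04). The SUV39H1 call in the PRMT5 knockdown was lost without GFP control replicate 2 (log2 fold change -0.14, edgeR adjusted p = 0.0662). SUV39H2 passed in the MEP50 knockdown (-0.13 ± 0.0552), a call lost with DESeq2, without GFP control replicates 1 or 3 or without MEP50 knockdown replicates 1 or 2 (log2 fold change -0.14 to -0.07, adjusted p = 0.0513 to 0.322). It reached -0.21 without MEP50 knockdown replicate 3. In the PRMT5 knockdown SUV39H2 was 0.12 ± 0.0534 (edgeR adjusted p = 0.0522) and passed with library totals as the only scaling, in a fit of the 6 libraries of the comparison, without PRMT5 knockdown replicate 3 or without MEP50 knockdown replicate 2 (log2 fold change 0.12 to 0.17, adjusted p = 0.0113 to 0.0483).

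The H4K20 enzymes split by knockdown. KMT5B, which makes the di- and trimethyl forms, stood at 64.6, 61.4 and 63.3 CPM with the GFP hairpin, 78.1, 77.4 and 75.2 with the PRMT5 hairpin and 60.5, 59.3 and 62.9 with the MEP50 hairpin. It rose in the PRMT5 knockdown (0.29 ± 0.0441, edgeR adjusted p = 7.50e-07) and was -0.05 ± 0.0457 in the MEP50 knockdown, a difference of 0.33 ± 0.0449 (edgeR adjusted p = 8.18e-08). KMT5A, the cell cycle regulated H4K20 monomethylase, stood at 51.2, 49.2 and 51.9 CPM with the GFP hairpin, 53.4, 47.5 and 51.4 with the PRMT5 hairpin and 61.9, 58.7 and 59.6 with the MEP50 hairpin. It rose in the MEP50 knockdown (0.24 ± 0.0515, edgeR adjusted p = 1.15e-04) and was 0.00 ± 0.0512 in the PRMT5 knockdown, a difference of -0.24 ± 0.0512 (edgeR adjusted p = 1.76e-04). The summed proliferation markers given beside EZH2 were higher in both knockdowns than in the control. Set directly against the MEP50 knockdown, 2 of the 16 were higher in the PRMT5 knockdown, 5 were lower and 9 did not pass. Their median log2 difference was -0.03, and 43.75% were called, beside 39.7% of all tested genes. CCNA2 was among the 5 lower ones (difference -0.22 ± 0.0335). The part of the markers in the KMT5A and SUV39H1 results was not tested.

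In the wider list of other lysine methyltransferases and H3K9 methyl readers, 9 of 19 were higher and 4 lower in the PRMT5 knockdown. In the MEP50 knockdown 9 were higher and 2 lower. The share called was 68.4% and 57.9%, beside 51.0% and 51.7% of all tested genes. SETD7, which methylates H3K4 and many other proteins, rose most, from 177 ± 2.97 CPM to 262 ± 1.69 and 269 ± 5.15 (log2 fold change 0.57 ± 0.0296, edgeR adjusted p = 1.20e-19, and 0.61 ± 0.0298, edgeR adjusted p = 1.66e-20). SMYD5 rose by 0.40 ± 0.0524 and 0.51 ± 0.0531, and SETMAR by 0.48 ± 0.129 and 0.36 ± 0.133. The SETMAR call in the MEP50 knockdown was lost with no low-count filter, without GFP control replicate 3 or without MEP50 knockdown replicate 3 (log2 fold change 0.32 to 0.35, adjusted p = 0.0541 to 0.0871).

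HOX genes are the textbook targets that KMT2 complexes keep active and Polycomb complexes keep silent. Of 37 matched HOX genes examined 8 had no reads and 19 were tested. In the PRMT5 knockdown 5 were higher and 4 lower (47.4% of the 19, beside 51.0% of all tested genes, with a median log2 fold change of -0.10), and in the MEP50 knockdown 5 were higher and 1 lower (31.6%, beside 51.7%, with a median of 0.05). The share called was thus no higher than over all genes. HOXA13, HOXB9 and HOXD8 rose in both knockdowns. HOXA13 stood at 2.23, 1.72 and 2.28 CPM with the GFP hairpin, 4.58, 5.87 and 3.88 with the PRMT5 hairpin and 7.01, 6.26 and 6.31 with the MEP50 hairpin, with log2 fold changes of 1.21 ± 0.180 (edgeR adjusted p = 3.88e-07) and 1.65 ± 0.178 (edgeR adjusted p = 2.30e-10). HOXB9 rose from 2.94 ± 0.372 CPM to 7.63 ± 0.924 and 6.51 ± 0.661, and HOXD8 from 2.98 ± 0.182 to 7.50 ± 1.23 and 8.17 ± 1.07. For HOXA13, HOXB9 and HOXD8 no knockdown library overlapped the control. The other called HOX genes were picked out after their values were seen. HOXC6 rose by 0.81 ± 0.124 and 0.73 ± 0.127 on the log2 scale, and HOXC8 by 0.35 ± 0.0614 and 0.29 ± 0.0629. HOXC13, HOXB8 and HOXA3 fell in the PRMT5 knockdown (log2 fold change -0.58 ± 0.154, -0.56 ± 0.0969 and -0.28 ± 0.0611) and did not pass in the MEP50 knockdown (-0.08 ± 0.151, -0.22 ± 0.0969 and 0.01 ± 0.0613). Their differences between the knockdowns were -0.50 ± 0.158, -0.34 ± 0.1002 and -0.29 ± 0.0620. HOXB8 passed in the MEP50 knockdown with RLE scaling, with upper-quartile scaling, with library totals as the only scaling, with 1 CPM in 3 libraries, in a fit of the 6 libraries of the comparison or without GFP control replicate 1 (log2 fold change -0.31 to -0.23, adjusted p = 0.0136 to 0.0492). HOXA10 passed as lower in both (-0.23 ± 0.0979, edgeR adjusted p = 0.0492, and -0.35 ± 0.101, edgeR adjusted p = 0.00331), and its call in the PRMT5 knockdown was lost with library totals as the only scaling, with DESeq2, without GFP control replicates 1 or 3 or without PRMT5 knockdown replicates 1 or 3 (log2 fold change -0.24 to -0.15, adjusted p = 0.0586 to 0.261). Histone marks at these genes were not measured.

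**Figure D4:**
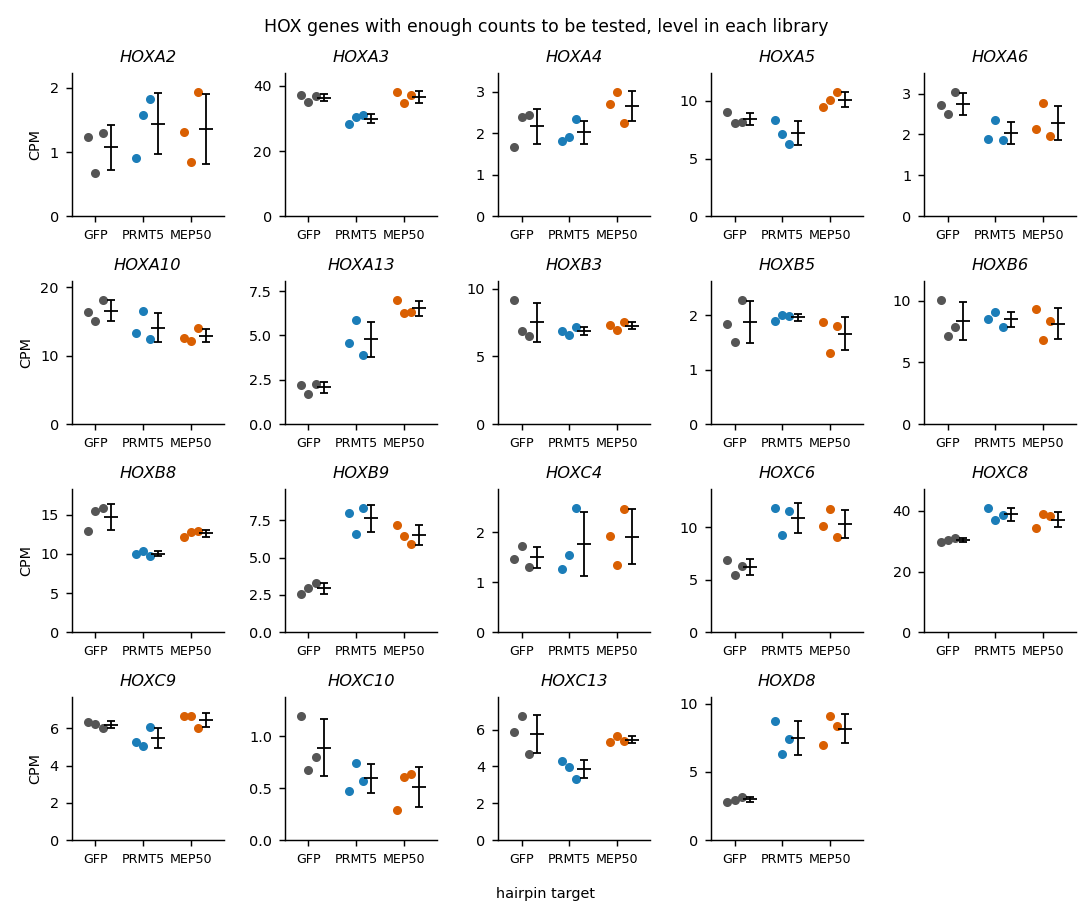
TMM-scaled CPM (vertical axis, from 0) of the 19 tested HOX genes in each library, by hairpin target; points are libraries, and the black marks are the mean and SD of 3 libraries. HOXA13, HOXB9, HOXC6, HOXC8 and HOXD8 are higher in both knockdowns, and HOXA3, HOXB8 and HOXC13 are lower in the PRMT5 knockdown.

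Set directly against each other, the knockdowns differed in 24 of the 46 genes, 12 higher and 12 lower in the PRMT5 knockdown, which is 52.2%. Over all tested genes 39.7% differed, 19.2% higher and 20.5% lower. This comparison uses the control libraries only for the shared estimate of spread, the scaling factors and the choice of tested genes. The H3K4 methyltransferases KMT2A, SETD1A and KMT2D were all higher in the PRMT5 knockdown, and none of the 5 measured was lower. Of the complex subunits CXXC1 and DPY30 were higher there, and WDR5 and ASH2L lower (-0.20 ± 0.0486 for WDR5). Of PRC2, SUZ12 and MTF2 were higher and JARID2, RBBP4, PHF19 and RBBP7 lower. Of the demethylases KDM5A was higher (0.10 ± 0.0355) and KDM2B, KDM4A and KDM3A lower (-0.19 ± 0.0573, -0.18 ± 0.0494 and -0.14 ± 0.0475). KDM1A did not pass (-0.07 ± 0.0314, edgeR adjusted p = 0.0825). BMI1, RBBP4 and SUV39H1 passed in opposite directions against the control, so their differences join a fall in the PRMT5 knockdown to a rise in the MEP50 knockdown.

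Some of these calls between the knockdowns were lost when 1 library was left out or under another setting. DPY30 was lost with DESeq2, without GFP control replicates 1 or 3, without PRMT5 knockdown replicates 1, 2 or 3 or without MEP50 knockdown replicates 1 or 2 (log2 fold change 0.12 to 0.16, adjusted p = 0.0515 to 0.132), and RBBP7 with upper-quartile scaling, with library totals as the only scaling, with no low-count filter, in a fit of the 6 libraries of the comparison, with DESeq2, without GFP control replicate 2, without PRMT5 knockdown replicates 2 or 3 or without MEP50 knockdown replicate 1 (log2 fold change -0.09 to -0.06, adjusted p = 0.0554 to 0.165). MTF2 was lost without MEP50 knockdown replicate 2 (log2 fold change 0.16, edgeR adjusted p = 0.0570), KDM2B without MEP50 knockdown replicate 3 (log2 fold change -0.16, edgeR adjusted p = 0.0507) and KDM3A without PRMT5 knockdown replicate 2 (log2 fold change -0.09, edgeR adjusted p = 0.201). KDM5A was lost without GFP control replicates 1 or 3, without PRMT5 knockdown replicates 1 or 2 or without MEP50 knockdown replicates 1 or 2 (log2 fold change 0.07 to 0.09, adjusted p = 0.0504 to 0.213). DOT1L, at 0.16 ± 0.0551 with all libraries, was lost without PRMT5 knockdown replicate 3 or without MEP50 knockdown replicates 1 or 3 (log2 fold change 0.07 to 0.14, adjusted p = 0.0774 to 0.323). KDM1A passed without PRMT5 knockdown replicate 1 or without MEP50 knockdown replicate 1 (log2 fold change -0.09, adjusted p = 0.0375 to 0.0465). Without PRMT5 knockdown replicate 2, 2 of the 10 demethylases passed in place of 4.

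**Figure D5:**
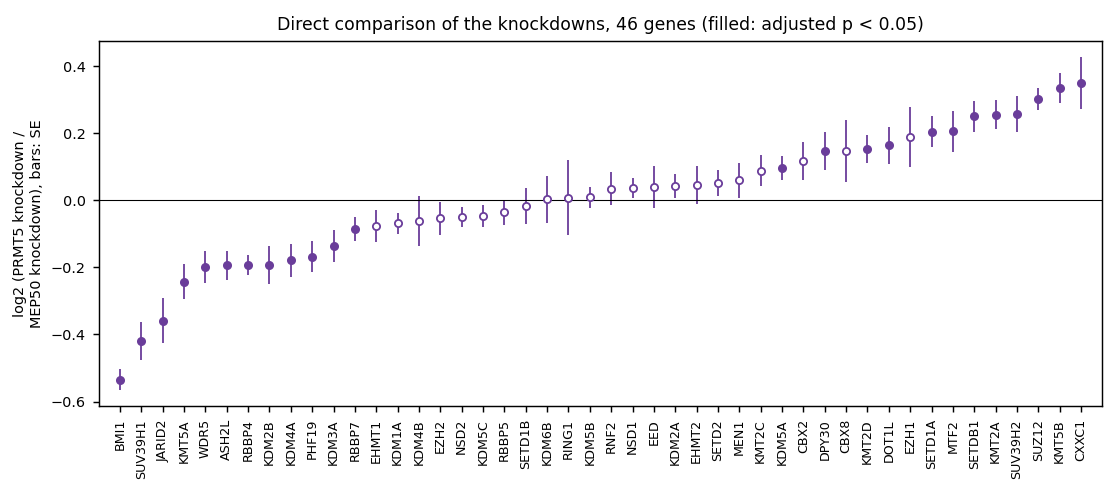
Log2 ratio of the PRMT5 knockdown to the MEP50 knockdown (vertical axis) for the 46 genes in order of the ratio; bars are standard errors and filled points passed an adjusted p of 0.05. BMI1 is lowest at -0.53 and CXXC1 highest at 0.35.

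Per kilobase of merged exons, the control levels of the 46 genes ran from 1.67 CPM per kb for KDM4B and 1.77 for KDM2B to 46.7 for BMI1, followed by KDM1A and SUZ12 at 29.7 each and RBBP4 at 26.2. KDM2B, which rose most, was thus among the weakest. KDM5B, which fell most, stood at 14.8 CPM per kb, between KDM5A at 13.3 and KDM5C at 21.6. KDM6B stood at 4.42. Of the H3K4 methyltransferases, SETD1A (9.74) and SETD1B (7.03) were above KMT2D (5.12), KMT2C (2.88) and KMT2A (2.59). These lengths merge all annotated isoforms, so a gene with long rare exons appears weaker than its main transcript. An exon of 18 of the 46 genes overlaps another gene on the opposite strand, and of 6 on the same strand (KMT2A, DPY30, EED, BMI1, KDM4A and EHMT1). The strand setting of the counting was not given in the sources used here, so reads of such overlaps may be misassigned. In the authors' deposited tables, 27 of the 46 genes were listed for the PRMT5 knockdown and 28 for the MEP50 knockdown, all of them among those called here, and the 4 called here but not listed were WDR5 in the former and CXXC1, EED and SUV39H2 in the latter.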

How the data were processed

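The values analysed are the authors' deposited counts of reads per Ensembl gene for 9 A549 libraries. The submitters' processing notes name Trim Galore, STAR and HTSeq and the hg19 build. Tool versions and the strand setting of the counting are not given in the sources used here. Total RNA, per the labels' protocols, was depleted of rRNA before a stranded library was made. The authors' deposited tables of comparisons hold, per the file headers, log2 fold changes and adjusted p-values of DESeq2 and edgeR, and were used here only to see which genes they list. Rows of the table that name no gene were dropped before any scaling or testing; reads outside genes were 11.9% to 14.5% and ambiguous reads 2.28% to 2.39% of counted reads per library.

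The members and gene lists were chosen with earlier results of these data known, so lists are described by counts and medians with no test of their own. Symbols were matched through a gene-name table holding 44822 of the 51796 identifiers, and exon lengths came from GENCODE release 29. One edgeR 4.0.16 model (R 4.3.3) covered all 9 libraries with the group as its term, using TMM factors, filterByExpr, a robust quasi-likelihood F test and Benjamini-Hochberg adjustment over 14582 genes at 0.05. The standard error of a log2 fold change is its size divided by the root of F, and 95% intervals use 1.96 standard errors. The biological coefficient of variation was 0.0395. Replicates of a group differed by 3.38 to 4.70 times the counting variance (chi-square per degree of freedom), so none was a repeat of another. The labels call them biological replicates without naming separate cultures, so p-values measure the spread between these libraries, which may be partly technical. The model code was tested on simulated counts. Promoter windows came from RefSeq, GRCh38.p14, and only upstream bases were used.

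Library values are given for both targets, for up to 4 members per role class with the largest called change, for members called between the knockdowns with an absolute log2 difference of at least 0.3, for a set of core genes whatever their values, and for up to 3 genes of each wider list per knockdown. COMMD3, CDH1 and 6 further HOX genes were added after values were seen. One gene of the HOX list is not reported here and is left out of that list's counts. Each result was recomputed with DESeq2 1.42.0, with RLE, upper-quartile or library-total scaling, without the low-count filter or with 1 CPM in 3 libraries as its minimum, with the replicate block, in fits of 6 libraries, and without each of the 9 libraries in turn.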

Additional observations from a re-analysis of the deposited data

Results flagged for a closer look

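The results below stand here because the 2 knockdowns differed from each other in the direct test between them (edgeR, adjusted p below 0.05). Values are log2 differences, PRMT5 knockdown minus MEP50 knockdown, and no explanation is weighed. Of the H3K4 genes, KMT2A differed by 0.26, KMT2D by 0.15, SETD1A by 0.20, DPY30 by 0.15, CXXC1 by 0.35, WDR5 by -0.20 and ASH2L by -0.19. The H3K4me3 readers PHF13 and SGF29 differed by 0.53 and -0.20. Of the PRC2 genes, SUZ12 differed by 0.30, MTF2 by 0.21, RBBP4 by -0.19, RBBP7 by -0.09, PHF19 by -0.17 and JARID2 by -0.36. Of PRC1 and its partners, BMI1 differed by -0.53, SCMH1 by -0.23 and E2F6 by 0.50. Of the demethylases and LSD1 partners, KDM2B differed by -0.19, KDM3A by -0.14, KDM4A by -0.18, KDM5A by 0.10, PHF8 by 0.18 and HMG20B by -0.15. Of the other methyltransferases, DOT1L differed by 0.16, SETDB1 by 0.25, SUV39H1 by -0.42, SUV39H2 by 0.26, KMT5A by -0.24 and KMT5B by 0.33. Of the HOX genes, HOXA13 differed by -0.45, HOXC13 by -0.50, HOXB8 by -0.34 and HOXA3 by -0.29. The epithelial marker CDH1 differed by -1.12. The proliferation genes CCNA2 and PCNA differed by -0.22 and -0.17.

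Outside the genes whose lost calls the report names, the difference was lost for SGF29 with library totals as the only scaling, with no low-count filter, without PRMT5 knockdown replicates 1 or 3 or without MEP50 knockdown replicates 1 or 3 (log2 fold change -0.20 to -0.17, adjusted p = 0.0559 to 0.124), for SCMH1 without PRMT5 knockdown replicates 1 or 3 or without MEP50 knockdown replicate 1 (log2 fold change -0.22 to -0.17, adjusted p = 0.0502 to 0.109), for HOXA13 without PRMT5 knockdown replicates 1 or 3 or without MEP50 knockdown replicate 1 (log2 fold change -0.43 to -0.32, adjusted p = 0.0569 to 0.151), for HOXC13 without PRMT5 knockdown replicate 3 (log2 fold change -0.41, edgeR adjusted p = 0.0635) and for HMG20B with upper-quartile scaling, with library totals as the only scaling, with no low-count filter, in a fit of the 6 libraries of the comparison, with DESeq2, without GFP control replicate 2, without PRMT5 knockdown replicates 1 or 2 or without MEP50 knockdown replicate 2 (log2 fold change -0.15 to -0.11, adjusted p = 0.0525 to 0.215).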

How the results depend on the processing

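Against the control, 20 of the 28 called genes in the PRMT5 knockdown and 26 of the 31 in the MEP50 knockdown passed under each of the 17 alternatives run, as did 17 of the 24 between the knockdowns, and no sign of a called value turned. The scalings moved the median of all genes by at most 0.0213 (log2). Counts of called genes moved by more than 1.5 times only when 1 library was left out. For H3K36 and H3K79 enzymes they ran from 1 to 2 in the PRMT5 knockdown and from 0 to 1 between the knockdowns, the 0 without PRMT5 knockdown replicate 3 or MEP50 knockdown replicates 1 or 3. PRC1 in the MEP50 knockdown ran from 2 to 5, and demethylases between the knockdowns from 2 to 4. The wider H3K4 list ran from 7 to 12 in the PRMT5 knockdown (7 without GFP control replicate 2) and from 6 to 10 between the knockdowns (6 without MEP50 knockdown replicate 3, in place of 10). The wider demethylase list ran from 4 to 7 between the knockdowns (4 without PRMT5 knockdown replicate 1 or MEP50 knockdown replicate 2, in place of 7), and the other methyltransferases from 2 to 4 (4 without PRMT5 knockdown replicate 3 or MEP50 knockdown replicates 2 or 3, in place of 2). The HOX genes ran from 3 to 5 between the knockdowns (3 without PRMT5 knockdown replicate 3, in place of 5). The cause of each move was not tested.

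Same-numbered libraries had correlations of deviations of -0.036 to 0.052, beside -0.054 to 0.052 for differently numbered ones. Between the control and the MEP50 knockdown, same-numbered pairs gave 0.052, 0.044 and 0.050, beside -0.046 to 0.0015 for the other pairs. Correlations this small cannot show whether the libraries were prepared in pairs. With the replicate number as a block, 3804 genes were higher and 3619 lower in the PRMT5 knockdown and 3874 and 3675 in the MEP50 knockdown. Of the 46 genes, the block ended the WDR5 call in the PRMT5 knockdown (edgeR adjusted p = 0.0502), and of the other genes named it ended HMG20B between the knockdowns (edgeR adjusted p = 0.05004) and HOXA10 in the PRMT5 knockdown (edgeR adjusted p = 0.0541). At this depth RING1, EZH1 and CBX8, with fewer reads than most of the 46, carried the widest errors.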
